A study of Mus musculus with 4 samples.

Results

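Imprinted genes are expressed mainly from the copy inherited from one parent, and many of them act on growth before birth. The 10 imprinted growth genes described here, Peg3, Igf2, H19, Dlk1, Meg3, Cdkn1c, Plagl1, Grb10, Mest and Ndn, were 10 of the 28692 genes listed in single-cell count matrices of the E12.5 mouse gut. They were chosen by name, in part from earlier results of these data. Peg3 had already been seen to differ between small intestine (SI) and large intestine (LI) in opposite directions in mesothelium and in fibroblasts (FB), so its region differences are given as a description with no test. The question put to the other 9 genes was whether they did the same.

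All cells came from untreated E12.5 embryos of a C57BL/6 strain carrying EYFP, with several embryos in each of 2 independent experiments and their sex not given. SI, and LI together with the cecum, were dissected, and live Itgb1+ YFP+ cells were sorted without cells bearing CD45, Ter119, CD31 or EpCAM. This gave 2 SI and 2 LI libraries of the 10x Genomics platform. The titles of the samples give this stage and these regions, whereas other labels of the same samples name adult tissue or colonic lamina propria. The 4 libraries held 31630548 to 62886525 unique molecular identifiers (UMIs, each standing for 1 captured transcript), and kept cells had a median depth of 4220.5 UMIs in LI replicate 1 and of 8382 to 8829 in the others. Any 2 libraries shared 8 to 15 cell barcodes.

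Clustering of 22094 kept cells, without the 10 genes among the clustering genes, gave 11 clusters. Of these, 4 clusters with 11601 cells were FB-like, and 1 cluster each was mesothelial-like (1306 cells), smooth muscle cell (SMC)-like (4558 cells) and neural-like (956 cells). The other 4 clusters, with 3673 cells, stayed unnamed and entered none of the main comparisons. The 10 mesothelial markers summed to between 2332 and 2519 CPM (UMIs of a gene over all UMIs of a library's cells in that group, which makes sums of different depth comparable) in the mesothelial-like sums of the 4 libraries and to between 39.6 and 140 CPM in the FB-like sums, where Msln was at 0. The 7 FB markers, each found in at least 10% of the cells of each FB-like cluster, summed to between 1006 and 1531 CPM in FB-like, 954 and 1501 CPM in SMC-like and 1352 and 3518 CPM in mesothelial-like cells. They therefore set FB-like cells apart from neural-like cells (at most 102 CPM) but not from the other groups, and 0 of them were among the 10 leading genes of any FB-like cluster. The 11 neural markers summed to between 2355 and 3366 CPM in neural-like cells, and to 228 CPM or less in the other cell groups. The 9 SMC markers were weakest in SMC-like cells of LI replicate 1, at 1793 CPM against 5537 to 11669 CPM in the other libraries, so the SMC label rests on less there. Epithelial, endothelial, immune and erythroid markers summed to at most 42.2, 35.3, 11.7 and 7.69 CPM in any sum, and Ptprc was at 0 in FB-like, mesothelial-like, SMC-like and neural-like cells. Pericyte markers reached 101 CPM, in FB-like cells of SI replicate 2. Markers of interstitial cells of Cajal reached 201 CPM, in SMC-like cells of LI replicate 2.

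Igf2 encodes a growth factor that signals through the IGF and insulin receptors. It lies next to H19, which makes a noncoding RNA from the other parental copy. Dlk1, a membrane protein related to Notch ligands, and the noncoding RNA Meg3 form a second such pair. Cdkn1c encodes the cyclin-dependent kinase inhibitor p57, and Grb10 an adaptor that restrains insulin and IGF receptor signalling. Plagl1 and Peg3 encode zinc finger proteins, Mest a protein of the hydrolase fold, and Ndn a member of the MAGE family. Imprinting itself was not measured, as the counts do not tell the parental copies apart.

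Peg3 lies on the reverse strand of chromosome 7 (ENSMUSG00000002265, mm10, chr7:6703892-6730431), and Usp29, an imprinted gene for a ubiquitin-specific protease-like protein, starts beside it on the forward strand (chr7:6730578-6967219). Their promoter windows are shown because the 2 genes start from almost the same place and are compared below. In the RefSeq table for GRCm38.p6, the window of each gene runs from 250 bases before its start to 50 after it. The 2 windows shared 263 bases, and the starts lay 164 bases apart. Capitals mark GGGGCCCC, the palindromic motif bound by PLAGL1, the protein of another gene of the list. Each window is written 5′ to 3′ on the strand of its own gene, the Peg3 window being chr7:6730370-6730669 and the Usp29 window chr7:6730333-6730632.
Peg3: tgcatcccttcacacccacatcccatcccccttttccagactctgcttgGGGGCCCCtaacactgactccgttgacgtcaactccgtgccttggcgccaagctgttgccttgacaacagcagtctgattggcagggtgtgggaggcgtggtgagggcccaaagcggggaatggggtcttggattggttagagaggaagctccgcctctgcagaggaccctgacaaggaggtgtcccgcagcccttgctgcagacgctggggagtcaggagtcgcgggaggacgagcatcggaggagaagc
Usp29: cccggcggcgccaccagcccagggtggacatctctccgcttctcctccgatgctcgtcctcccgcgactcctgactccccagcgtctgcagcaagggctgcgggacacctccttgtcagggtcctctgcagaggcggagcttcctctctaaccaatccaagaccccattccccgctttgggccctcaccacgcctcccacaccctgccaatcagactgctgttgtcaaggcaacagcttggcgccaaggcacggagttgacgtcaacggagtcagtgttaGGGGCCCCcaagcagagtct

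For the list, the table held 15 windows of 8 of the 10 genes, with none for H19 and Cdkn1c. The motif GGGGCCCC, which reads the same on both strands, was in 1 of these 15, that of Peg3, in the stretch shared with Usp29, and in 1.08% of all 32851 windows of that length. The motif GCCATNTT, a core bound by YY1, was searched on both strands and was in none of the 15 and in 6.05% of all windows. The Peg3 window held 13 CpG dinucleotides and the Usp29 window 17, against a median of 7 over all windows. These are descriptions of letters and not of binding.

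By level in the 4 named cell groups, 5 of the 10 genes were low in neural-like cells, and the other 5 were found in all of them. Igf2, H19, Dlk1, Meg3 and Plagl1 were abundant in FB-like, mesothelial-like and SMC-like cells and low in neural-like cells. Igf2 (ENSMUSG00000048583, chr7:142650766-142666816, reverse strand) ranged from 242 to 715 CPM in FB-like, 513 to 1257 CPM in mesothelial-like and 176 to 637 CPM in SMC-like cells, and from 2.65 to 6.97 CPM in neural-like cells. Dlk1 (ENSMUSG00000040856, chr12:109452823-109463336, forward strand) lay between 67.3 and 503 CPM in the first 3 groups and between 2.00 and 4.63 CPM in neural-like cells. In neural-like cells these levels rest on 7 to 25 UMIs for Igf2 and 4 to 19 for Dlk1 per library. Upk3b, a mesothelial gene that FB-like cells should lack, was at 0.576 to 3.36 CPM in FB-like cells. Free RNA in the droplets was not measured, so expression of Igf2 and Dlk1 in neural-like cells cannot be told apart from it.

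H19 (ENSMUSG00000000031, chr7:142575529-142578143, reverse strand) ranged from 1544 to 1935 CPM in mesothelial-like cells, above all values in SMC-like (658 to 1156 CPM) and FB-like cells (751 to 998 CPM), and at most 53.6 CPM in neural-like cells. Its mesothelial-like values did not overlap with those of FB-like cells, which held for 1 of the 10 genes, whereas the mesothelial-like values lay above the FB-like ones for 12.1% of genes tested in both groups. The reverse, FB-like values above mesothelial-like ones, held for 0 of the 10 genes and for 10.3% of all. Meg3 (ENSMUSG00000021268, chr12:109541001-109571726, forward strand) ranged from 2097 to 2893 CPM in FB-like and from 1625 to 2880.2 CPM in mesothelial-like cells, which overlapped. In SMC-like cells it was at 1611 to 2072 CPM, below all FB-like values, and in neural-like cells at 55.0 to 93.7 CPM. The unnamed cluster 9, led by the neuronal genes Cartpt, Stmn2 and Tubb3, held 1744 to 2014 CPM of Meg3. Plagl1 (ENSMUSG00000019817, chr10:13060504-13131694, forward strand) was highest on average in mesothelial-like cells, at 421 ± 183 CPM (mean ± SD over 4 libraries), followed by FB-like cells at 226 ± 89.7 CPM and SMC-like cells at 167 ± 65.3 CPM, and neighbours in this order overlapped. In neural-like cells it was at 10.9 ± 3.95 CPM.

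The second set was present in all 4 cell groups. Mest (ENSMUSG00000051855, chr6:30723547-30748465, forward strand) was highest in neural-like cells, from 430 to 692 CPM, and no library of these overlapped with FB-like cells (283 to 414 CPM). Its SMC-like values, from 111 to 198 CPM, were the lowest and lay apart from the mesothelial-like ones (230 to 374 CPM). Peg3 was highest on average in mesothelial-like cells (337 to 878 CPM), overlapping with FB-like cells (216 to 467 CPM), and lower in SMC-like (116 to 206 CPM) and neural-like cells (89.7 to 133 CPM). That first place came from SI. In LI replicates 1 and 2, FB-like cells were at 449 and 467 CPM, above mesothelial-like cells at 337 and 463 CPM. Cdkn1c (ENSMUSG00000037664, chr7:143458339-143461050, reverse strand) had overlapping ranges between neighbours in its order, from 1244 ± 435 CPM in mesothelial-like to 661 ± 255 CPM in neural-like cells. Grb10 (ENSMUSG00000020176, chr11:11930508-12038683, reverse strand) varied least, between 310 and 546 CPM over all 16 sums. Ndn (ENSMUSG00000033585, chr7:62346569-62350262, forward strand) lay between 84.5 and 170 CPM, again with overlap between all neighbours.

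Over the list, 6 of the 10 genes had FB-like values above all neural-like values, against 19.7% of genes tested in both groups. The reverse held for 1 gene, Mest, against 14.3%. FB-like values lay above all SMC-like values for 3 genes, Peg3, Mest and Meg3, against 4.28%, and the reverse held for 0 genes, against 2.63%. The cell groups were made by clustering these same cells, so no test is given for these orders. Exons of Igf2, Meg3, Cdkn1c and Mest overlap an antisense gene (Igf2os, Gm26906, Gm44732 and Copg2), and whether counting used the strand is not given in the sources used here.

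**Figure D1:**
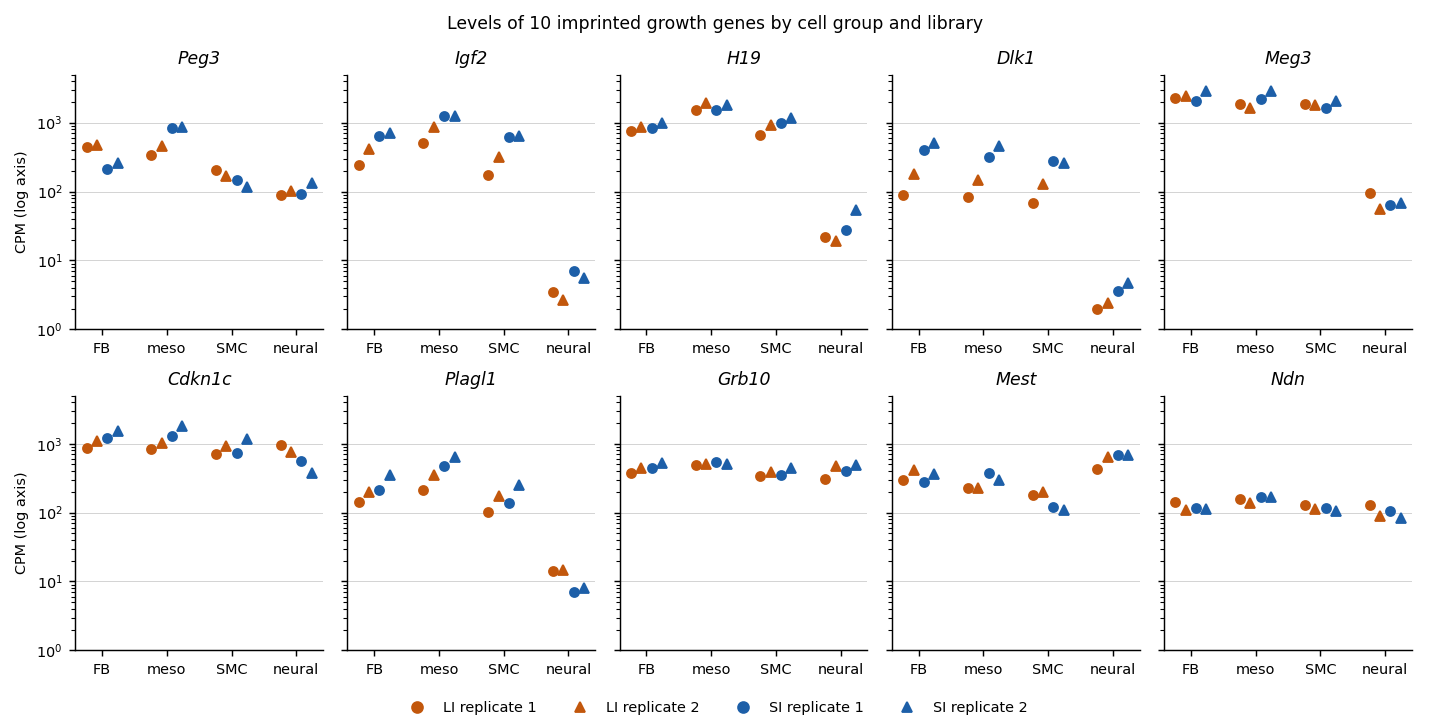
Level of each of the 10 genes in CPM (log axis) in FB-like, mesothelial-like (meso), SMC-like and neural-like cells, with 1 point per library, LI in orange and SI in blue. Igf2, H19, Dlk1, Meg3 and Plagl1 drop in neural-like cells, where Mest is highest, and the SI points of Peg3 lie below the LI points in FB-like cells and above them in mesothelial-like cells.

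Dlk1 showed the largest region difference of the list in the FB-like and the mesothelial-like sums, and it went the same way in both. In FB-like cells it was at 89.0 and 178 CPM in LI replicates 1 and 2 and at 401 and 503 CPM in SI replicates 1 and 2. In mesothelial-like cells the values were 83.5 and 146 CPM in LI and 320 and 458 CPM in SI, and in SMC-like cells 67.3 and 129 CPM against 278 and 257 CPM. Both SI libraries were above both LI libraries in each of the 3 cell groups. On the log2 scale SI exceeded LI by 1.91 ± 0.30 (SE) in FB-like cells (edgeR quasi-likelihood test with Benjamini-Hochberg adjustment over all genes tested, adjusted p = 0.0210), 1.82 ± 0.27 in mesothelial-like cells (edgeR adjusted p = 0.00859) and 1.58 ± 0.28 in SMC-like cells (edgeR adjusted p = 0.0418). The difference between FB-like and mesothelial-like cells in this region effect was -0.13 ± 0.12 on the log2 scale (edgeR adjusted p = 0.665). In FB-like and mesothelial-like cells Dlk1 was called in each alternative setting, whereas the SMC-like call was lost in cells called G1 (edgeR adjusted p = 0.0508).

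Igf2 followed the same direction. In FB-like cells it was at 242 and 409 CPM in the LI libraries and at 632 and 715 CPM in the SI libraries. It was at 176 and 319 CPM in LI and at 628 and 637 CPM in SI among SMC-like cells, and at 513 and 851 CPM in LI and 1249 and 1257 CPM in SI among mesothelial-like cells. No SI library overlapped with an LI library in these 3 groups. The log2 fold change was 1.20 ± 0.24 in FB-like cells (edgeR adjusted p = 0.0452) and corresponded to 2.82-fold in SMC-like cells (SE 0.27 on the log2 scale, edgeR adjusted p = 0.0433). In mesothelial-like cells it was 0.94 ± 0.22 and missed the threshold (edgeR adjusted p = 0.0847), which it passed in 6 of the 12 alternatives, among them DESeq2 (adjusted p = 0.0204), cells called G1 (edgeR adjusted p = 0.0373) and the fits without LI replicate 1 or LI replicate 2 (edgeR adjusted p = 0.0410 and 8.0e-05). LI replicate 1 had the lowest value of Igf2 and of Dlk1 in these 3 groups, and the log2 fold changes in FB-like cells were 0.87 (Igf2) and 1.49 (Dlk1) without LI replicate 1 and 1.58 and 2.45 without LI replicate 2. In neural-like cells the levels kept the same order of regions at a few CPM, so no difference is read there. The SMC-like call of Igf2 was lost without LI replicate 1 (edgeR adjusted p = 0.0542). Where a library is left out, its region has 1 library, which is assumed to vary like those of the other region. The FB-like call of Igf2 was lost when all unnamed clusters were pooled with the FB-like ones (edgeR adjusted p = 0.0562).

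The noncoding partners of Igf2 and Dlk1 were not called between regions in the main comparison of any cell group. H19 was at 751 and 878 CPM in LI and at 833 and 998 CPM in SI among FB-like cells, with overlap between the regions (log2 fold change 0.32 ± 0.18, edgeR adjusted p = 0.430). Among mesothelial-like cells it was at 1544 and 1935 CPM in LI and at 1551 and 1801 CPM in SI (0.00 ± 0.18, edgeR adjusted p = 0.995). Meg3 was at 2261 and 2407 CPM in LI and at 2097 and 2893 CPM in SI among FB-like cells (0.24 ± 0.19, edgeR adjusted p = 0.603). In mesothelial-like cells it was at 1882 and 1625 CPM in LI and at 2195 and 2880.2 CPM in SI, with no overlap but no call (0.59 ± 0.19, edgeR adjusted p = 0.261). Without LI replicate 1 it was called there (edgeR adjusted p = 0.0214). In SMC-like cells H19 was at 658 and 914 CPM in LI and at 998 and 1156 CPM in SI, with no overlap but no call (0.60 ± 0.20, edgeR adjusted p = 0.288), and it was called without the low-count filter. The difference between partners was not tested.

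Peg3, shown with its promoter above, went in opposite directions. In FB-like cells it was at 449 and 467 CPM in LI and at 216 and 258 CPM in SI, so both SI libraries were lower, at 458 ± 13.2 CPM in LI and 237 ± 29.3 CPM in SI (mean ± SD, n = 2 libraries each). In mesothelial-like cells it was at 337 and 463 CPM in LI and at 842 and 878 CPM in SI, and both SI libraries were higher. The fitted log2 fold change (SI over LI) was -0.80 ± 0.17 in FB-like cells and 1.17 ± 0.20 in mesothelial-like cells, and the interaction, the latter minus the former fitted with library as a block, was 1.97 ± 0.12. The interaction lay between 1.81 and 2.18 when any 1 library was left out. In SMC-like cells the values were 206 and 168 CPM in LI and 146 and 116 CPM in SI, the direction of FB-like cells at a smaller size, and in neural-like cells the regions overlapped (89.7 and 103 CPM against 91.2 and 133 CPM).

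Within the mesenchyme, the direction of Peg3 was shared by all FB-like clusters except cluster 8. LI was above SI in clusters 0 (led by Pitx1 and Igfbp5), 2 (histone genes) and 4 (Anxa2, Wnt4 and Tac2), where SI over LI was 0.369, 0.529 and 0.601. It was also above SI in SMC-like cluster 1 (0.701) and in the unnamed clusters 3 and 5 (0.759 and 0.432). Cluster 8, an FB-like cluster led by Foxd1, went the other way, with 459 and 499 CPM in LI and 1607 and 743 CPM in SI. The value of 1607 CPM rests on 428 UMIs from 20 cells, as SI replicate 1 held few cells of this cluster, against 111, 141 and 121 cells in the other libraries. Mesothelial-like cells had SI over LI at 2.15. Clusters were drawn from the same cells, and cluster values carry no test.

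**Figure D2:**
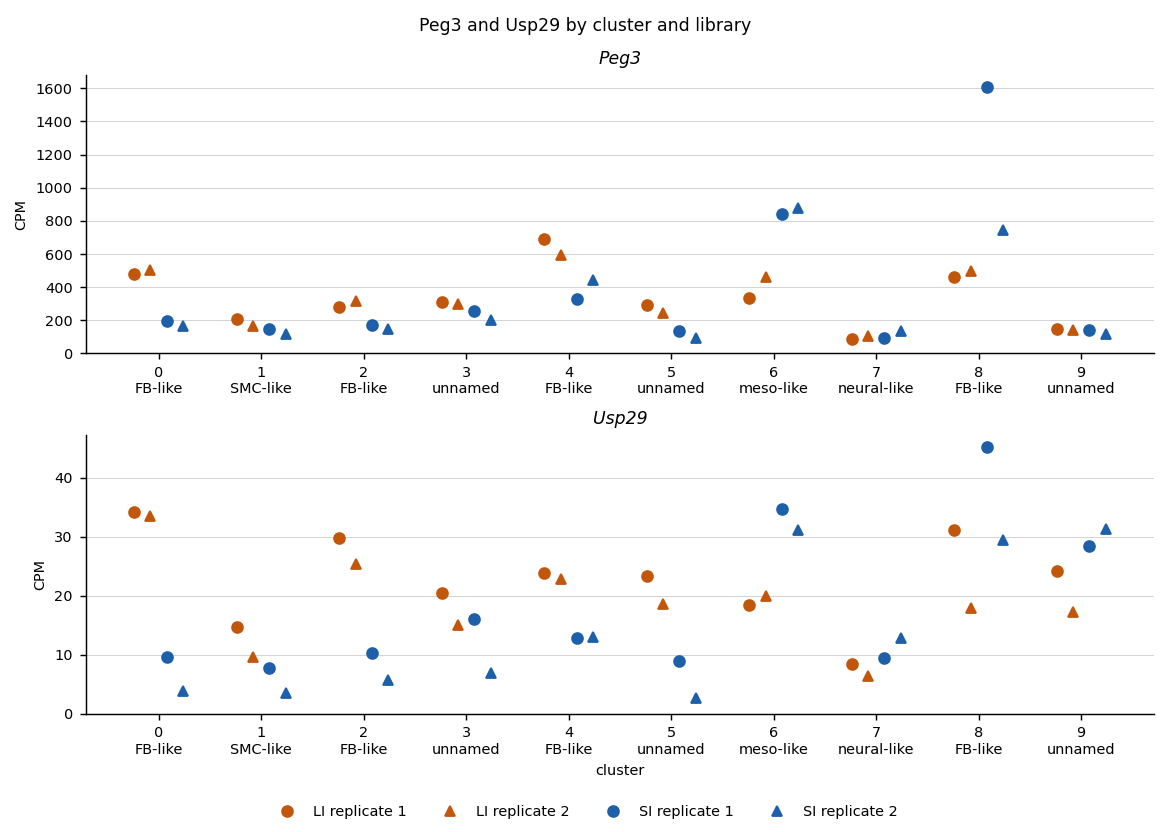
Peg3 and its divergent neighbour Usp29 in CPM (linear axis from 0) by cluster, with 1 point per library, LI in orange and SI in blue, without cluster 10, which held 157 of its 176 cells in LI replicate 2. In clusters 0, 2 and 4 the SI points lie below the LI points for both genes, and in cluster 6, the mesothelial-like cells, they lie above them.

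FB markers summed to 1352 and 2280.2 CPM in mesothelial-like cells of LI and to 2552 and 3518 CPM in those of SI, while the mesothelial markers stayed between 2332 and 2519 CPM. In FB-like cells of the 4 libraries the mesothelial markers summed to 140 and 69.3 CPM in LI and to 56.3 and 39.6 CPM in SI. SMC markers summed to 1035 and 1228 CPM in LI and to 1471 and 2083 CPM in SI among FB-like cells, and to 937 and 609 CPM in LI against 438 and 546 CPM in SI among mesothelial-like cells. Their regions did not overlap in either group. Peg3 in mesothelial-like cells of SI, at 842 and 878 CPM, was above its level in the FB-like sums of either region. In FB-like cluster 8 alone it was at 1607 CPM (from 20 cells) and 743 CPM in SI. The part of the marker differences in the values of Peg3 and of the other members was not tested.

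For the list as a whole, 2 of the 10 genes, Igf2 and Dlk1, were called in FB-like cells, both higher in SI, against 2.87% of the 13799 genes tested. In mesothelial-like cells 2 were called, Dlk1 and Peg3. As Peg3 was put on the list for its region difference, Dlk1 alone is set against 1.02% of 10640 genes there. In SMC-like cells 2 were called, Igf2 and Dlk1, against 1.42% of 12142 genes. In neural-like cells 0 were called in the main edgeR comparison, against 0.420% of 10464 genes, with 4 at an unadjusted p under 0.05 and 1 call by DESeq2. The median log2 fold change over the 10 genes, Peg3 included, was 0.36 (FB-like) and 0.71 (mesothelial-like), against 0.01 and -0.01 over all genes tested. All 10 genes passed the filter on low counts in each comparison. The count in FB-like cells was 5 without LI replicate 2, and in mesothelial-like cells it was 5 without LI replicate 1 or LI replicate 2 and 1 without SI replicate 2. In neural-like cells it was 2, Cdkn1c and H19, without LI replicate 1 or SI replicate 1, and 1, Cdkn1c, without LI replicate 2. In SMC-like cells it was 1 without LI replicate 1 and 3 with Plagl1 without SI replicate 1. On the scale of CPM, without the TMM normalization factors, the median over all genes in FB-like cells was -0.12, and the differences of Mest and Ndn in FB-like cells and of H19 in mesothelial-like cells changed sign. The calls of Peg3 entered the choice of the list and nothing is read from them.

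Besides Peg3, which is on the list because of this pattern, the interaction of region and cell group was called for 3 of the other 9 genes, Mest, Meg3 and H19, against 4.53% of 13259 genes. It was 0.58 ± 0.17 for Mest (edgeR adjusted p = 0.04998), 0.34 ± 0.10 for Meg3 (edgeR adjusted p = 0.0445) and -0.32 ± 0.09 for H19 (edgeR adjusted p = 0.0382). The fitted directions in the 2 cell groups were opposite for 0 of these 3, and 3.46% of the 10588 genes tested in all 3 fits had a called interaction with opposite directions. For 111 of those 366 genes SI was lower in FB-like and higher in mesothelial-like cells, as for Peg3. In this fit none of the other 9 genes had a called interaction with opposite directions. The sign of H19 in mesothelial-like cells, at 0.00 ± 0.18, was not settled. H19 counted as opposite without the low-count filter and in cells called G1. Mest did so with the marker gate per cell and with unnamed clusters joined to the FB-like ones. For Mest, H19 and Meg3 the call depended on the processing: DESeq2 called Peg3 alone, as did the fit without LI replicate 2 and the fit with equal numbers of cells from each FB-like cluster. Mest and Meg3 also lost the call without SI replicate 1, and H19 without LI replicate 1 or SI replicate 2. Mest counted as opposite, with an interaction called, without LI replicate 1 and without SI replicate 2. Mest was close to it, with 302 and 414 CPM in LI and 283 and 365 CPM in SI among FB-like cells (0.01 ± 0.21) and 230 and 231 CPM against 374 and 296 CPM among mesothelial-like cells (0.59 ± 0.20, edgeR adjusted p = 0.261). In SMC-like cells Mest was at 182 and 198 CPM in LI and at 120 and 111 CPM in SI, lower in SI with no overlap, as Peg3 was, but with no call (-0.58 ± 0.16, edgeR adjusted p = 0.183). LI was above SI for Mest in clusters 2, 3 and 5 (SI over LI 0.680, 0.435 and 0.783), while clusters 0 and 4 overlapped and SI was above LI in cluster 8 (2.22). Its small difference in FB-like cells was below 0 on the scale of CPM and in 6 of the 15 alternatives.

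**Figure D3:**
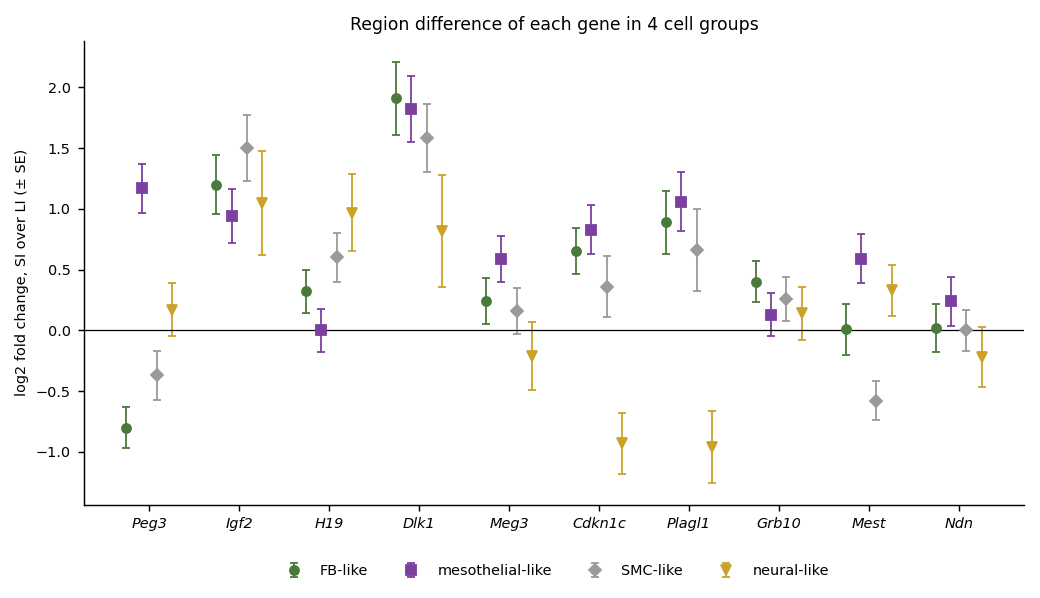
Log2 fold change of SI over LI with its standard error for each of the 10 genes in FB-like (circles), mesothelial-like (squares), SMC-like (diamonds) and neural-like cells (triangles), from edgeR fits on 2 libraries per region. Peg3 lies at -0.80 in FB-like and at 1.17 in mesothelial-like cells, while Dlk1 lies between 0.82 and 1.91 in all 4 groups.

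Usp29, on the list of 33 other imprinted genes, followed Peg3. It was at 31.2 and 29.4 CPM in LI and at 10.8 and 7.81 CPM in SI among FB-like cells, and fell by 1.55 ± 0.23 on the log2 scale in SI (edgeR adjusted p = 0.0161). In mesothelial-like cells it was at 18.5 and 19.9 CPM in LI and at 34.7 and 31.2 CPM in SI, with no overlap (0.84 ± 0.26, edgeR adjusted p = 0.230). These mesothelial-like levels rest on 49 to 77 UMIs per library. The interaction of 2.37 ± 0.24 was called (edgeR adjusted p = 6.9e-07) and stayed called in each of the 15 alternatives. Zim1, a zinc finger gene on the other side of Peg3 (chr7:6671269-6696450), was at 1.35 and 5.18 CPM in LI and at 7.66 and 11.5 CPM in SI among mesothelial-like cells, from 4 to 18 UMIs, and its interaction missed the threshold (1.76 ± 0.53, edgeR adjusted p = 0.0593).

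Of the 33 other imprinted genes, 31 were listed and 28 were tested in the interaction, of which 3 were called, all higher than 0, against 4.53% of all genes. Besides Usp29 these were Nnat (0.44 ± 0.10, edgeR adjusted p = 0.00903), which encodes neuronatin, and Asb4 (3.51 ± 0.60, edgeR adjusted p = 7.2e-04), which encodes an ankyrin repeat protein. Nnat was lower in SI in both cell groups, at 1176 ± 189 CPM in LI and 587 ± 76.2 CPM in SI among FB-like cells and at 1461 ± 252 and 1061 ± 9.26 CPM among mesothelial-like cells. Asb4 was at 2 to 14 UMIs per mesothelial-like sum. In FB-like cells 3 of 29 tested were called, against 2.87% of all genes, Usp29 lower in SI and Phlda2 (1.92 ± 0.28, edgeR adjusted p = 0.0158) and Slc38a4 (1.20 ± 0.18, edgeR adjusted p = 0.0173) higher. Phlda2, which restrains placental growth, was at 2.67 and 2.43 CPM in LI and at 10.1 and 7.25 CPM in SI. Slc38a4, an amino acid transporter, was at 29.1 and 29.9 CPM in LI and at 55.1 and 67.8 CPM in SI. The counts called were 0 of 22 in mesothelial-like cells (5 at an unadjusted p under 0.05), 1 of 26 in SMC-like cells (1.42% of all genes) and 0 of 21 in neural-like cells (4 at an unadjusted p under 0.05). The median log2 fold change of the list was -0.08 (FB-like) and 0.11 (mesothelial-like).

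The measured values of Cdkn1c and Plagl1 were higher in SI in FB-like and mesothelial-like cells and lower in SI in neural-like cells. None of these differences was called in the main edgeR comparison. Cdkn1c was at 861 and 1089.6 CPM in LI and at 1226 and 1534 CPM in SI among FB-like cells (log2 fold change 0.65 ± 0.19, edgeR adjusted p = 0.151), and at 828 and 1009.7 CPM against 1313 and 1823 CPM among mesothelial-like cells (0.83 ± 0.20, edgeR adjusted p = 0.0977). In neural-like cells it was at 963 and 755 CPM in LI and at 554 and 373 CPM in SI (-0.93 ± 0.25, edgeR adjusted p = 0.200). The regions did not overlap in any of these 3 groups, but none of the 3 differences was called in the main edgeR comparison. All 3 were called by DESeq2 (adjusted p = 0.0497, 0.0366 and 0.0487) and by edgeR without the low-count filter (adjusted p = 0.0199, 0.00264 and 5.0e-04). A replicate block in edgeR gave calls for all 3 as well. Alternatives with a call numbered 4 in FB-like, 5 in mesothelial-like and 6 in neural-like cells, against 11, 7 and 5 without one. With 1 library left out, the log2 fold changes in the same order lay at 0.49 to 0.78, 0.6 to 1.04 and -1.28 to -0.65. The difference between neural-like and FB-like cells was not tested. Plagl1 was at 141 and 198 CPM in LI and at 214 and 352 CPM in SI among FB-like cells (0.89 ± 0.26, edgeR adjusted p = 0.148), and at 215 and 348 CPM against 477 and 644 CPM among mesothelial-like cells (1.06 ± 0.24, edgeR adjusted p = 0.0740). DESeq2 called both of these differences of Plagl1 (adjusted p = 0.0184 and 0.0118), as did edgeR with a replicate block. In neural-like cells Plagl1 rested on 25 to 66 UMIs per library, at 14.0 and 14.6 CPM in LI and at 6.97 and 8.04 CPM in SI. The log2 fold change there was -0.96 ± 0.30 (edgeR adjusted p = 0.321), and no difference is read at so few UMIs.

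Grb10 and Ndn were not called between regions in FB-like or mesothelial-like cells. Grb10 was at 382 and 445 CPM in LI and at 452 and 534 CPM in SI among FB-like cells (0.40 ± 0.17, edgeR adjusted p = 0.317), and at 498 to 510 CPM in LI against 515 to 546 CPM in SI among mesothelial-like cells (0.13 ± 0.18, edgeR adjusted p = 0.875). Ndn was at 143 and 109 CPM in LI and at 118 and 114 CPM in SI among FB-like cells (0.02 ± 0.20, edgeR adjusted p = 0.981), with overlap. Among mesothelial-like cells Ndn was at 160 and 136 CPM in LI and at 170 and 166 CPM in SI (0.24 ± 0.20, edgeR adjusted p = 0.756).

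Levels in FB-like cells also varied with the called phase of the cell cycle, taken from S and G2M genes of the same cells and therefore a description. Cdkn1c, the kinase inhibitor, averaged 1379.7 ± 359 CPM in cells called G1, 1057 ± 297 CPM in S and 1062 ± 201 CPM in G2M (mean ± SD over 4 libraries). The G1 value was the highest of the 3 phases in each of the 4 libraries for 8 of the 10 genes in FB-like cells, all but Dlk1 and Plagl1, and for 4 genes in mesothelial-like cells, Igf2, H19, Cdkn1c and Grb10. The same held for 20.5% of all genes tested in FB-like cells and for 5.76% in mesothelial-like cells, and most genes tested were less abundant than any of the 10. The share of FB-like cells called G1 was 53.7% and 56.0% in LI and 37.0% and 50.4% in SI. Peg3 was lower in SI within each phase, at 549 and 587 CPM in LI and 273 and 276 CPM in SI in G1, at 382 and 412 CPM against 195 and 256 CPM in S, and at 359 and 321 CPM against 192 and 236 CPM in G2M. Dlk1 was higher in SI within each phase.

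**Figure D4:**
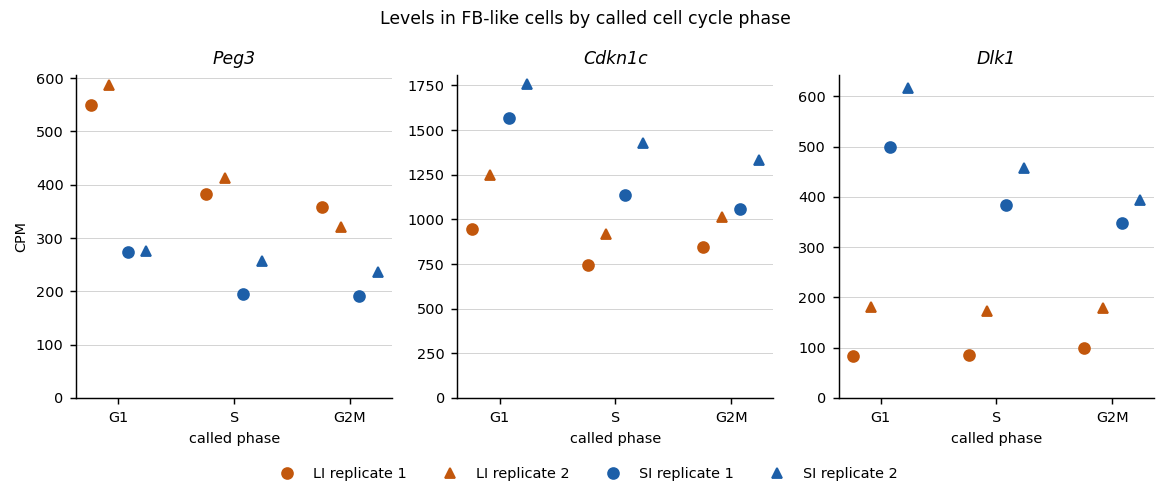
Peg3, Cdkn1c and Dlk1 in CPM (linear axes from 0) in FB-like cells called G1, S or G2M, with 1 point per library, LI in orange and SI in blue. The SI points of Peg3 lie below the LI points and those of Dlk1 above them in each phase, and Cdkn1c is highest in G1 in each library.

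The share of cells with a UMI of a gene was compared after each cell had been thinned to 3000 UMIs, which left out 1040 of the LI cells and 161 of the SI cells in the 4 groups as too shallow. For Peg3 it was 55.3% and 58.0% of FB-like cells in LI and 36.2% and 34.4% in SI. Among mesothelial-like cells it was 57.9% and 68.3% in LI and 83.0% and 85.7% in SI, so the shares of cells moved in the same opposite directions as the CPM. Without thinning, the mean shares of Peg3 were 70.9% in LI and 56.2% in SI among FB-like cells and 79.9% in LI and 96.7% in SI among mesothelial-like cells. In neural-like cells Peg3 was found in 18.6% to 28.6% of cells after thinning and in 49.4% to 76.9% without it.

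For Dlk1 the thinned share was 26.6 ± 9.41% of FB-like cells in LI and 68.1 ± 3.76% in SI (mean ± SD, n = 2), and 24.1 ± 7.03% and 61.6 ± 12.3% of mesothelial-like cells. For Igf2 it was 47.8% and 66.9% of FB-like cells in LI and 82.1% and 86.4% in SI, and 82.9 ± 8.55% (LI) and 96.4 ± 0.762% (SI) of mesothelial-like cells. Igf2 and Dlk1 were found in at most 2.07% and 1.57% of neural-like cells in any library after thinning, and in 3.98% to 6.88% and 2.27% to 5.23% without it. As a gauge of free RNA, the mesothelial gene Upk3b was found in 77.6% to 88.4% of mesothelial-like cells and in 0.199% to 0.882% of FB-like cells. Meg3 was found in 97.5% to 98.4% of FB-like cells and in 12.2% to 26.5% of neural-like cells, or 36.0% to 48.3% of these without thinning. Meg3 and Igf2 are abundant in most of the sorted cells and Upk3b is not, so this gauge does not tell free RNA from expression for Meg3 or Igf2 in neural-like cells.

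**Figure D5:**
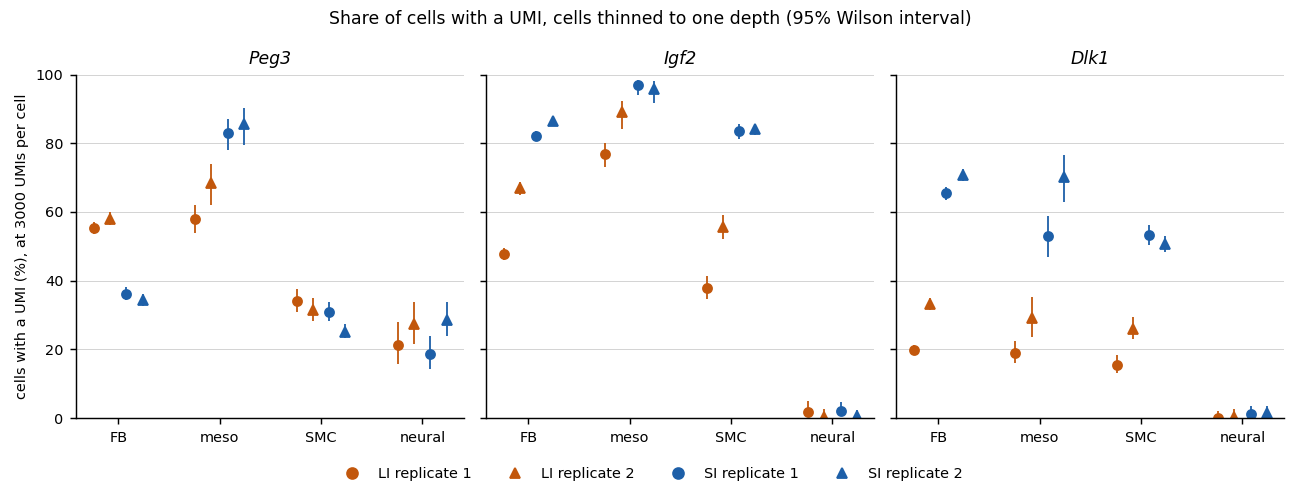
Percentage of cells with a UMI of Peg3, Igf2 or Dlk1 in FB-like, mesothelial-like (meso), SMC-like and neural-like cells after thinning to 3000 UMIs per cell, with 1 point per library (LI orange, SI blue) and the 95% Wilson interval, which covers counting error only. Peg3 shares lie between 34.4% and 58.0% in FB-like cells, higher in LI, and between 57.9% and 85.7% in mesothelial-like cells, higher in SI.

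All 16 genes of IGF signalling on a second list were found in the matrices, and 15 were tested in the interaction. Of these 3 were called, against 4.53% of all genes, and 1 of the 3, Igfbp5, was already known for it. Igf1, the other IGF growth factor, was at 47.5 and 65.3 CPM in LI and at 129 and 184 CPM in SI among mesothelial-like cells, and rose by 1.53 ± 0.24 on the log2 scale (edgeR adjusted p = 0.0129). In FB-like cells it was at 16.2 and 27.4 CPM in LI and at 15.2 and 36.7 CPM in SI (0.39 ± 0.39, edgeR adjusted p = 0.692), and its interaction was 1.19 ± 0.20 (edgeR adjusted p = 5.9e-04). Igfbp5, an IGF-binding protein already known from these data for this pattern and so given with no test, was at 497 and 782 CPM in LI and at 183 and 339 CPM in SI among FB-like cells and at 232 and 340 CPM against 342 and 658 CPM among mesothelial-like cells. Igfbp3, a further binding protein, had a called interaction (2.19 ± 0.55, edgeR adjusted p = 0.0201) on 5 to 15 UMIs per mesothelial-like sum. The list had 0 of 15 called in FB-like cells (3 at an unadjusted p under 0.05), 1 of 12 in mesothelial-like cells (1.02% of all genes), 1 of 13 in SMC-like cells (1.42%) and 0 of 13 in neural-like cells (4 at an unadjusted p under 0.05), with median log2 fold changes of -0.02, 0.06, -0.30 and -0.46.

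The genes with the most similar pattern were sought by Pearson correlation of log2(CPM + 1) over the 16 sums, which share libraries, among the 3394 genes with a mean of at least 50 CPM. For Peg3 these were Wt1 (r = 0.921), Bach1 (0.914) and Casc4 (0.910), and for Dlk1 Rspo3 (0.997), Hoxc8 (0.989) and Tspan12 (0.982). Igf2 was most like Col1a1 (0.990), Mfap4 (0.989) and Ddx50 (0.987), H19 like Mfap4 (0.991), Mcc (0.989) and Col1a1 (0.988), and Meg3 like Nrk (0.987), Il11ra1 (0.985) and Mfap4 (0.984). Plagl1 was most like Gpc3 (0.984), Gm42418 (0.980) and Lamb1 (0.975), and Cdkn1c like Phactr2 (0.874), Ppfibp1 (0.856) and Col1a2 (0.844). Grb10 came near to Rbms1 (0.830) and Myl12b (0.828), Mest to Tbx2 (0.918), Mef2c (0.888) and Hist1h1a (0.863), and Ndn to Hspa5 (0.958), Slc39a7 (0.956) and Ctsz (0.919). Within the list, Igf2 and H19 were most alike (0.986), and the nearest member to Mest was Grb10 (0.228). Both Igf2 and H19 drop in the neural-like sums, but their region differences were unlike. SI over LI was 2.07 for Igf2 and 1.12 for H19 in FB-like cells, and 1.84 and 0.963 in mesothelial-like cells. The correlations are descriptions and carry no test.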

How the data were processed

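Stromal cells of the E12.5 mouse SI and LI were profiled in 4 libraries, which were grouped and numbered by their titles. The deposited values are raw UMI counts per gene and cell barcode, which the authors obtained from Cell Ranger (version 3.1.0 in the headers) on the mm10 build, without normalization. Per the labels a 3′ or a 5′ kit was used, and which library used which is not given. The authors worked on with Seurat (3 per the labels), and those steps are not in the files.

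Cells with at least 1000 genes and under 10% mitochondrial UMIs were kept. Scrublet (scanpy 1.11.5) called 1 to 6 doublets per library, too few to have worked, so 183 to 348 top-scoring cells per library were taken out, at 0.8% for each 1000 cells. In Seurat 5.3.0 the libraries were integrated on 2000 variable genes, less Hox genes, the 10 members and both other lists, which left 1948, with S and G2M scores regressed out, 30 components and resolution 0.3. A cluster took a class name when at least 3 markers of that class were among its 10 leading genes by fold (at least 30 CPM, 5 CPM added), and stayed unnamed with fewer markers of a class other than FB there. The rest were FB-like if 10% of their cells held each of 3 or more FB markers. This naming rule was set after the clusters were seen.

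Counts were summed per library and cell group. Sums of 1569323 to 24699827 UMIs entered edgeR 4.0.16 (quasi-likelihood, TMM, default low-count filter, R 4.3.3), fitted over all genes. A gene was called where its Benjamini-Hochberg adjusted p was below 0.05. Standard errors are the log2 change over the square root of F. The interaction used the 8 FB-like and mesothelial-like sums with library as a block. P-values rest on 2 libraries per region, and the labels name 2 independent experiments of several embryos. Scripts were tested on simulated counts. No 2 libraries of a group agreed within sampling noise (chi-square per degree of freedom from 2.98 to 38.6).

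The members and lists were chosen with earlier results of these data known. The text names all members, the 3 genes most like each (less 1 that is not reported here), and the genes of both other lists called in the interaction. Alternatives were DESeq2 1.42.0, RLE factors, no low-count filter, a replicate block, each library left out, no doublet removal, G1 cells, a marker gate per cell, pooled clusters, equal cluster makeup and members left out of totals. Usp29 and Zim1 in FB-like and mesothelial-like cells, Phlda2, Slc38a4 and the clusters named for Peg3 were singled out after their values were seen.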

Additional observations from a re-analysis of the deposited data

Results flagged for a closer look

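By the interaction term of the edgeR fit over all genes, the region effect (SI against LI) was not the same in mesothelial-like as in FB-like cells for 8 genes of the 3 lists. Among the members these were Mest (0.58 on the log2 scale), Meg3 (0.34) and H19 (-0.32). Among the other imprinted genes they were Usp29 (2.37), Asb4 (3.51) and Nnat (0.44), and among the IGF signalling genes Igf1 (1.19) and Igfbp3 (2.19). Peg3 (1.97) and Igfbp5 (1.98) were known for this pattern before, and their values are a description. Of the 8, Usp29, Asb4 and Igf1 were called in each of the 15 alternatives, whereas Mest lost the call in 7, H19 in 6, Meg3 in 5, Igfbp3 in 5 and Nnat in 4. The values of Asb4 and Igfbp3 rest on 2 to 15 UMIs per mesothelial-like sum.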

How the results depend on the processing

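Counts of members called moved with the setting. Against 2 in FB-like cells, DESeq2, no low-count filter and the replicate block each gave 5, pooling all remaining clusters gave 1, and leaving out 1 library gave 2 to 5. Against 2 in mesothelial-like cells, DESeq2 and no low-count filter gave 5, cells called G1 gave 4, the replicate block gave 7, and leaving out 1 library gave 1 to 5. Against 2 in SMC-like cells, no low-count filter gave 4, the replicate block 5, cells called G1 1, and leaving out 1 library 1 to 3. Against 0 in neural-like cells, DESeq2, the replicate block and no doublet removal gave 1, no low-count filter gave 2, and leaving out 1 library gave 0 to 2. Against 4 in the interaction, DESeq2 gave 1, equal cells of each FB-like cluster 1, no doublet removal 2, cells called G1 5, the replicate block 6 (adding Grb10 and Igf2), and leaving out 1 library 1 to 4. Against 1 with opposite directions, no low-count filter and cells called G1 gave 2 (Peg3 and H19). The marker gate per cell, all remaining clusters pooled, and the addition of the unnamed clusters that detect FB markers, an alternative chosen after seeing the data, also gave 2 (Peg3 and Mest), and leaving out 1 library gave 1 to 2. The replicate block called Igf2 (1.0e-07) and Meg3 (0.00494, both edgeR adjusted p) in mesothelial-like cells, H19 and Mest in SMC-like cells, and Cdkn1c in FB-like, mesothelial-like and neural-like cells (edgeR adjusted p = 0.0338, 1.4e-05 and 0.00186). Plagl1 was also called by the replicate block in FB-like, mesothelial-like and SMC-like cells, and Mest in mesothelial-like cells. The causes were not tested. The labels name 2 independent experiments, but nothing states that the same number in SI and LI marks the same experiment, so the numbers were not treated as a pairing; deviations from the group means correlated at 0.284, 0.232, 0.414 and 0.338 between same-numbered libraries in FB-like, mesothelial-like, SMC-like and neural-like cells.

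Signs changed for 3 uncalled values. Mest in FB-like cells went from 0.01 to -0.42 with the marker gate, -0.16 with all remaining clusters pooled, -0.02 with equal cluster cells and -0.14 with the unnamed clusters added, and lay between -0.20 and 0.20 with 1 library left out. Ndn in FB-like cells went to -0.01 with the marker gate and lay between -0.20 and 0.24 with 1 library left out. H19 in mesothelial-like cells went to -0.01 without the low-count filter and to -0.03 in cells called G1, and lay between -0.12 and 0.14 with 1 library left out. The count of members with FB-like above neural-like levels was 6 and ranged from 6 to 8 with 1 library left out. Mean shares of cells with Peg3 moved with the depth, and the direction between regions stayed: at 2000 UMIs per cell they were 49.4% in LI and 27.0% in SI (FB-like) and 52.6% and 71.8% (mesothelial-like), and without thinning 70.9%, 56.2%, 79.9% and 96.7%. With 2 libraries per region, small differences can be missed.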

Other observations

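Dlk1 was also found in the small unnamed cluster 9, led by the neuronal genes Cartpt, Stmn2 and Tubb3, which entered none of the main comparisons. There it was at 37.6 and 43.2 CPM in LI and at 16.7 and 8.19 CPM in SI, from 11 to 45 UMIs and 44 to 111 cells per library, whereas neural-like cells, led by Foxd3 and Sox10, held 2.00 to 4.63 CPM. LI was above SI in this cluster, the reverse of FB-like, mesothelial-like and SMC-like cells. The cluster was singled out after its values were seen, and the difference was not tested. Igf2 in the same cluster was at 1.92 to 23.5 CPM, from 2 to 24 UMIs.

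Peg3 and Usp29 in the same cluster showed no common direction. Peg3 was at 119 to 150 CPM with overlap between the regions, and Usp29 was at 24.2 and 17.3 CPM in LI and at 28.4 and 31.3 CPM in SI, from 9 to 42 UMIs.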
